A study of Mus musculus with 10 samples.

Results

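The data describe open chromatin over 9 genes of the Hippo pathway in mouse colon organoids: *Yap1* and *Wwtr1* (the gene of TAZ), *Tead1*, *Tead2*, *Tead3*, *Tead4*, *Vgll4*, *Lats1* and *Nf2*. They were taken by name, and each was measured over its gene body with 5 kb on each side, on GRCm38 with the GENCODE M21 gene models. They are 9 of the 17290 protein-coding genes that any of the libraries had a peak over, and 92 of the 85680 regions obtained by merging all peak lists lie over them (named below by gene and a number that counts along the chromosome).

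Hippo signalling is a kinase cascade that restrains organ growth. NF2 (Merlin) at the cell cortex helps to activate the kinases LATS1 and LATS2, which phosphorylate YAP and TAZ and so keep them out of the nucleus. YAP and TAZ bind no DNA themselves, and act through the TEAD factors, from which VGLL4 displaces them. In the intestinal epithelium YAP is known for its part in regeneration after injury, when crypts take on a fetal-like state.

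The organoids were grown from colonic crypts of WT mice and of Villin-Cre *Ahr* fl/fl littermates, in which Cre under the Villin promoter deletes the aryl hydrocarbon receptor gene in epithelium (AHR KO), all on a C57BL/6 background. In WENR medium they received Wnt3a, EGF, Noggin and R-spondin with SB202190, A83-01 and nicotinamide. For d4 ENR they were switched for 4 days to ENR medium to differentiate. By the study's methods ENR is the base medium, to which Wnt3a, SB202190, A83-01 and nicotinamide were added for WENR. A difference between media therefore cannot be tied to Wnt3a alone. Live cells were sorted and their accessible DNA was tagged by Omni-ATAC-seq in 10 libraries: 2 WT WENR, 3 AHR KO WENR, 3 WT d4 ENR and 2 AHR KO d4 ENR. The labels do not tie the libraries to animals, so that p-values measure the spread between these libraries, which may be technical. The animals' ages were not given in the sources used here.

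The libraries held 30354729 to 49126792 fragments after the authors' filters, and between 33433 and 65308 peaks. The d4 ENR lists were shorter and shallower: peaks held 63.0 to 68.6% of the coverage in WENR, 14.1, 24.4 and 30.9% in WT d4 ENR and 33.8 and 44.2% in AHR KO d4 ENR, and covered 61.8 to 67.2 Mb in WENR against 26.2 to 41.0 Mb in WT and 46.6 and 50.1 Mb in AHR KO d4 ENR. These totals moved with medium and genotype in the same order as most values below, and their part in the differences was not tested. A peak that is missing from a list did not pass the threshold there, and may still be accessible. In bulk samples, fewer cells that open a site and less access per cell cannot be told apart. Promoters of 8 of 9 epithelial markers were called in all 10 libraries, *Krt20* being called in only 1, and those of 4 leukocyte markers in none. Of the fibroblast markers *Pdgfra* was called in all 10 libraries and *Col1a1*, *Col1a2* and *Dcn* in none, and of the endothelial markers *Kdr* was called in the 5 WENR libraries only, *Pecam1* and *Cdh5* in none. Peaks over *Ahr* itself covered more bases in AHR KO (3250 to 7017 bp) than in WT (1216 to 2544 bp), and do not check the deletion.

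The promoters are shown first, because they are the sites at which the genes were most often open in every library. RefSeq (GRCm38.p6) gave 11 promoter windows of 300 bases for 7 of the 9 genes, each from 250 bases before to 50 after a start. The 7-base TEAD motif, ACATTCC or GCATTCC on either strand, was found in windows of *Yap1*, *Wwtr1*, *Tead3* and *Vgll4*, against 7% of all 32851 promoter windows. The WNT-responsive TCF/LEF motif ATCAAAG was found at *Wwtr1* (3.73% of all windows), and no window held the AP-1 motif TGAGTCA (5.2%), the AHR motif TNGCGTG (5.07%) or the HNF4 motifs CAAAGTCCA and CAAAGTTCA (0.861%). This holds for the 300-base windows only. The wider peak regions at promoters held AHR letters at *Yap1*, *Wwtr1*, *Tead2*, *Tead4*, *Vgll4* and *Lats1*. They also held AP-1 letters at *Yap1* and *Tead4* and HNF4 letters at *Tead1*. In the sequences, read 5′ to 3′ on the strand of the gene, capitals mark the TEAD and TCF/LEF letters.
Yap1, chr9:8004547-8004846, minus strand, GRCm38.p6: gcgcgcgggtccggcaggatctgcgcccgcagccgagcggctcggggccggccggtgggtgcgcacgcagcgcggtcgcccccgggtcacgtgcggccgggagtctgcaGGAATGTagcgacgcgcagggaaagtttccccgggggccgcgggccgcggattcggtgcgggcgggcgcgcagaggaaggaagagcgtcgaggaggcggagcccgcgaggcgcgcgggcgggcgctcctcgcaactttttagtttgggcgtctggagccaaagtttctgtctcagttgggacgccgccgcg
Wwtr1, chr3:57575827-57576126, minus strand, GRCm38.p6: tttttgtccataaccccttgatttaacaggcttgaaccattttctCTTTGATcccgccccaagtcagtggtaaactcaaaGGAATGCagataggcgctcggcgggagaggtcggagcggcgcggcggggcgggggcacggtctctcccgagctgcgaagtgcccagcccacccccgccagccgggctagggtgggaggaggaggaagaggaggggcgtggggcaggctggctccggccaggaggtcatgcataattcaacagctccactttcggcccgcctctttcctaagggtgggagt
Tead3, chr17:28350551-28350850, minus strand, GRCm38.p6: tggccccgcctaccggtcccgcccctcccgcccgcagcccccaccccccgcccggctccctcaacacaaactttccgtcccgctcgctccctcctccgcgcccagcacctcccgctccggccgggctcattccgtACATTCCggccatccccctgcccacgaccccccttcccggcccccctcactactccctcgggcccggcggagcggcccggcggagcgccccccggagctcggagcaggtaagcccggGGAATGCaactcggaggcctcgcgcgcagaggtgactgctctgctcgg
Vgll4, chr6:114969154-114969453, minus strand, GRCm38.p6: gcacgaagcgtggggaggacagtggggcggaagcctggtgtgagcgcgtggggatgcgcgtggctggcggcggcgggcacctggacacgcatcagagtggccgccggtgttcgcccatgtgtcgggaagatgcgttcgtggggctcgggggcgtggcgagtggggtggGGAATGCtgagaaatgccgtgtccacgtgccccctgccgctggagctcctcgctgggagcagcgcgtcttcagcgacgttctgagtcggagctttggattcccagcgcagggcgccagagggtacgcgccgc
Tead2, chr7:45215542-45215841, plus strand, GRCm38.p6: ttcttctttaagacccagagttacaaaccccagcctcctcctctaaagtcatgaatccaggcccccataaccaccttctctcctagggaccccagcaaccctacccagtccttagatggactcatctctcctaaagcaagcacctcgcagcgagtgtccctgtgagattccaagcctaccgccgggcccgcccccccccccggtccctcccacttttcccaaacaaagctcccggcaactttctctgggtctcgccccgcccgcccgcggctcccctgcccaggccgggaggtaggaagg
The *Tead2* window held none of these motifs and is shown because its promoter was the member promoter most often missing in d4 ENR. It held 13 CpG dinucleotides, against 49 in *Yap1*, 42 in *Lats1*, 34 in *Vgll4* and in the *Tead3* window shown, 19 in *Wwtr1*, and 22 and 2 at the upstream and downstream starts of *Nf2*, with a median of 7 over all windows. A match of letters describes a sequence and does not show that a factor binds it.

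All 9 genes had fewer bases under peaks in d4 ENR than in WENR. In each of them every d4 ENR library lay below every WENR library of the same genotype, and each passed an exact permutation test of the medium within genotypes (two-sided p = 0.02, the smallest it allows, adjusted p = 0.0387 over 17290 genes by Benjamini-Hochberg). That call is common in these data, as 51.3% of all genes (8878 of 17290) were called lower in d4 ENR. Over the 14235 genes covered in all 10 libraries, the median gene fell by 0.43 on the log2 scale, and 7 of the 9 genes fell further, with a median of −0.73. When bases were instead divided by the Mb that all peaks of a library cover, the median gene rose by 0.24, only *Wwtr1* and *Vgll4* were still called lower, *Tead3* was called higher, and *Yap1* and *Lats1* had positive differences that were not called (log2 ratios of 0.06 and 0.35). On that scale, 28% of the 7106 genes called were lower in d4 ENR, against 99.4% of those called on bases. The calls on bases were also lost when every list was shortened to the 33433 strongest peaks (lowest adjusted p = 0.0548) and when any 1 library was left out, which raises the smallest possible exact p to 0.0333 or 0.05. Leaving out 1 library cannot undo a full separation of the media, so that all 9 genes stayed separated does not test it. Without the peaks at the promoters of *Dkkl1* and *Rpl10a*, neighbours in the *Tead2* and *Tead3* windows, 8 of the 9 were called and separated. *Tead3* was the exception. The only site of *Lats1*, a promoter it shares with the neighbour *Pcmt1*, was kept.

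*Yap1* encodes the coactivator YAP. Its peaks covered 5785 and 5207 bp in WT WENR, 6140, 5173 and 6150 bp in AHR KO WENR, 2625, 2834 and 3910 bp in WT d4 ENR and 4415 and 4462 bp in AHR KO d4 ENR. WENR libraries were the highest in both genotypes, and both AHR KO d4 ENR libraries lay above all 3 WT ones. The difference between media, averaged over genotypes, was −1878 bp, or −0.60 as a log2 ratio, at percentile 34.1 of the 14235 genes. WT organoids kept 56.8% of their WENR bases and AHR KO organoids 76.2%.

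*Wwtr1*, the gene of the paralogous coactivator TAZ, had the lowest ratio of the 9. Its peaks covered 6977 and 7256 bp in WT WENR, 7093, 6581 and 12464 bp in AHR KO WENR, 2191, 2492 and 2982 bp in WT d4 ENR and 2619 and 4183 bp in AHR KO d4 ENR. AHR KO WENR replicate 3 stood above all other libraries, and the genotypes overlapped in both media. The difference between media was −4937 bp, or −1.42 as a log2 ratio, so that only 3.16% of genes had a ratio as low or lower. WT kept 35.9% of its bases and AHR KO 39.0%.

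**Figure D1:**
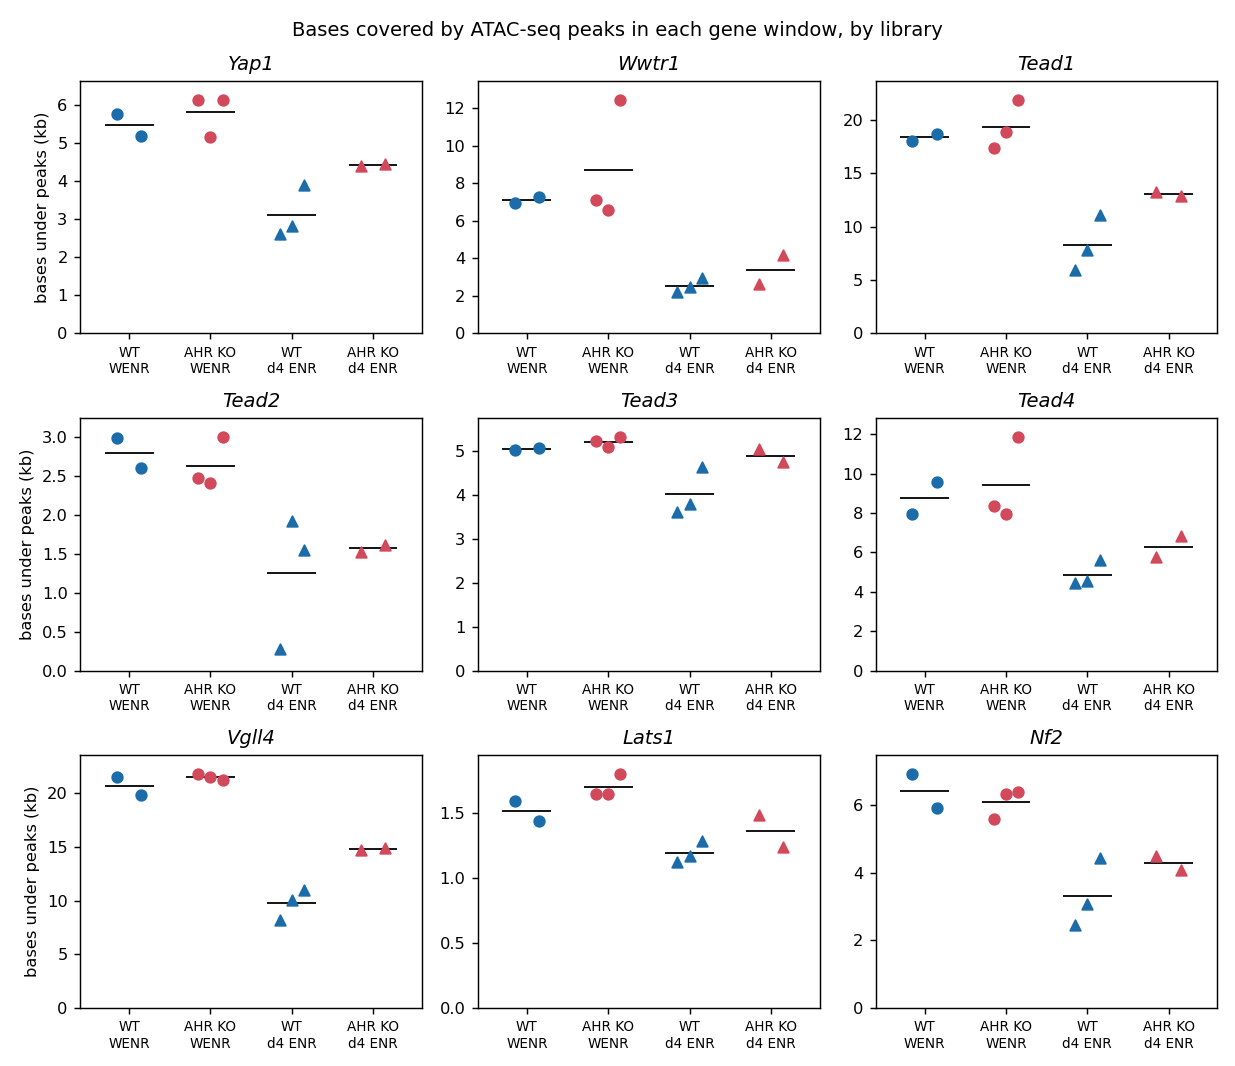
Bases under peaks (kb) over each gene with 5 kb on each side. Points are libraries, coloured by genotype, with circles for WENR and triangles for d4 ENR, and lines mark group means. In each panel the d4 ENR libraries lie below the WENR libraries of their genotype, and *Wwtr1* in AHR KO WENR replicate 3 stands apart at 12464 bp.

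The TEAD genes encode the DNA-binding partners of YAP and TAZ. Over *Tead1* peaks covered 18020 and 18720 bp in WT WENR, 17362, 18839 and 21885 bp in AHR KO WENR, 5968, 7770 and 11046 bp in WT d4 ENR and 13290 and 12890 bp in AHR KO d4 ENR. Both AHR KO libraries were above all WT libraries in d4 ENR, and in WENR the genotypes overlapped. The log2 ratio of the media was −0.86, and WT kept 45.0% and AHR KO 67.6% of the WENR bases.

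*Tead2* had 2994 and 2605 bp in WT WENR, 2472, 2412 and 3003 bp in AHR KO WENR, 278, 1925 and 1554 bp in WT d4 ENR and 1521 and 1618 bp in AHR KO d4 ENR. The low value of 278 bp belonged to WT d4 ENR replicate 1, the library with the shortest list, and the genotypes overlapped in both media. Its log2 ratio was −0.95, and −1.17 without the promoter of the neighbour *Dkkl1*, which lies in its window.

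*Tead3* had the log2 ratio of bases nearest to 0 of the 9, while *Lats1* had the smallest difference in bp. It had 5029 and 5073 bp in WT WENR, 5220, 5080 and 5317 bp in AHR KO WENR, 3614, 3795 and 4632 bp in WT d4 ENR and 5036 and 4743 bp in AHR KO d4 ENR. The AHR KO libraries were above the WT libraries in both media. The log2 ratio of the media was −0.21, and WT kept 79.5% and AHR KO 93.9% of the bases. The promoter of the neighbour *Rpl10a* held over 40% of these bases, and without it the log2 ratio was −0.23 and the medium was no longer called (−418 bp, adjusted p = 0.0662, exact permutation test). With it, per Mb of the library, the difference turned to 31.1 bp per Mb higher in d4 ENR (adjusted p = 0.0487, exact permutation test).

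*Tead4* had 7965 and 9588 bp in WT WENR, 8383, 7956 and 11869 bp in AHR KO WENR, 4428, 4550 and 5615 bp in WT d4 ENR and 5761 and 6834 bp in AHR KO d4 ENR. The highest value was again that of AHR KO WENR replicate 3. The log2 ratio was −0.71, and both AHR KO libraries were above the WT libraries in d4 ENR.

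*Vgll4*, whose product competes with YAP for TEAD factors, had 21527 and 19846 bp in WT WENR, 21817, 21576 and 21274 bp in AHR KO WENR, 8164, 10069 and 11004 bp in WT d4 ENR and 14689 and 14929 bp in AHR KO d4 ENR. The 4 groups separated into WENR, AHR KO d4 ENR and WT d4 ENR with no overlap between these 3 levels. The difference between media was −8844 bp, or −0.81 on the log2 scale, and WT kept 47.1% and AHR KO 68.7%.

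*Lats1*, a kinase that phosphorylates YAP and TAZ, had 1595 and 1441 bp in WT WENR, 1649, 1645 and 1803 bp in AHR KO WENR, 1125, 1174 and 1283 bp in WT d4 ENR and 1490 and 1237 bp in AHR KO d4 ENR. Its single site is its promoter, which it shares with *Pcmt1*, and the log2 ratio was −0.33, above that of the median gene. WT kept 78.7% and AHR KO 80.3% of its bases. The genotypes overlapped in d4 ENR and not in WENR.

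*Nf2*, the upstream activator of the kinases, had 6920 and 5921 bp in WT WENR, 5588, 6319 and 6399 bp in AHR KO WENR, 2456, 3066 and 4428 bp in WT d4 ENR and 4479 and 4086 bp in AHR KO d4 ENR. The genotypes overlapped in both media, and the log2 ratio of the media was −0.73.

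Per length, which allows genes to be set side by side, *Vgll4* and the *Tead3* window had the highest share under peaks and *Lats1* the lowest, but a large part of the *Tead3* value belongs to a neighbour. In WT WENR peaks covered 17.3% ± 0.107 (SD, n = 2) of the *Tead3* window and 17.3% ± 0.996 of the *Vgll4* window, followed by *Tead4* with 10.1% ± 1.33 and *Tead2* with 10.0% ± 0.986. *Tead1* (7.74% ± 0.208), *Nf2* (6.85% ± 0.754) and *Yap1* (6.65% ± 0.495) came next, the latter pair within their spread of each other, then *Wwtr1* (5.46% ± 0.151) and *Lats1* (3.35% ± 0.241). The *Tead3* window includes the promoter of *Rpl10a*, a ribosomal protein gene, which held 41.0% of its bases in WT WENR, and without it *Tead3* had 10.2% ± 0.0267, next to *Tead4*. The *Tead2* window likewise includes the promoter of *Dkkl1*, which held 31.7% of its bases in WT WENR. Without that promoter *Tead2* had 6.86% ± 1.19, near *Nf2* and *Yap1*. In WT d4 ENR *Tead3* had 13.8% ± 1.86 (n = 3), and 7.90% ± 0.852 without the neighbour, close to *Vgll4*. *Vgll4* had 8.16% ± 1.21 and *Tead4* 5.62% ± 0.755, while *Wwtr1* was the lowest, with 1.96% ± 0.306. In AHR KO d4 ENR *Tead3* had 16.8% ± 0.711 (9.63% ± 0.298 without the neighbour), *Vgll4* 12.4% ± 0.142 and *Wwtr1* 2.61% ± 0.849 (n = 2).

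**Figure D2:**
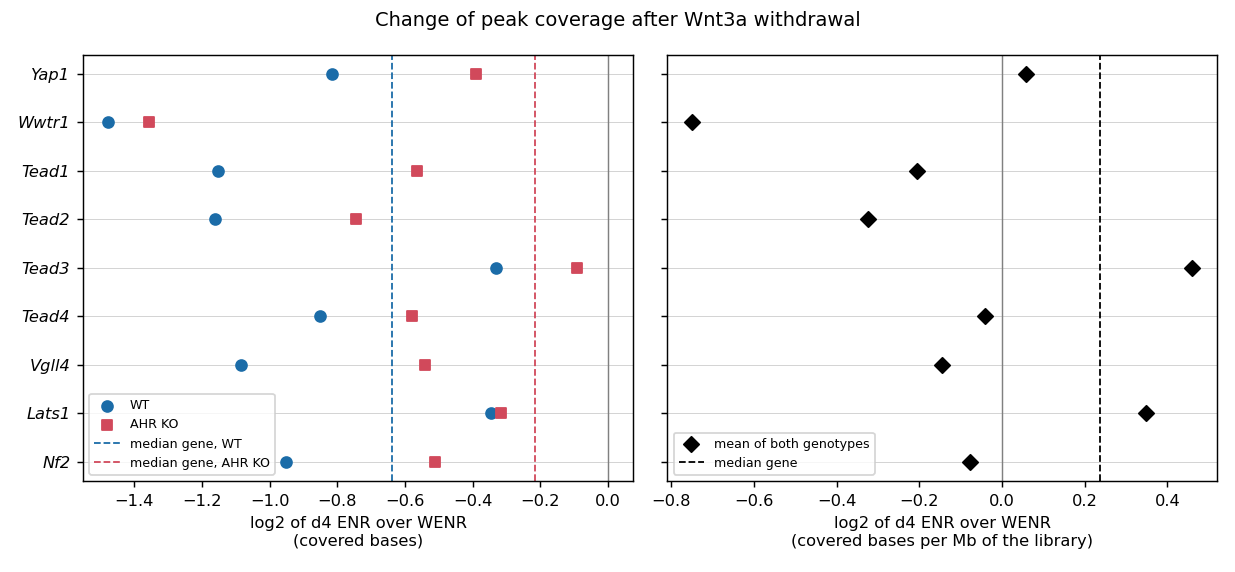
Log2 ratio of bases under peaks, d4 ENR over WENR, for each gene in WT and AHR KO, with the ratio of the median gene of each genotype as a line. *Wwtr1* has the lowest ratio in both genotypes and *Tead3* the highest, and the medians are −0.64 in WT and −0.22 in AHR KO.

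The loss of AHR was compared over both media and within each. None of the 9 genes passed the exact permutation test of genotype within media after adjustment, and neither did any of the 17290 genes (0% called, 2071 genes at an unadjusted p under 0.05, lowest adjusted p = 0.304). *Tead3* had the lowest p of the 9, with AHR KO minus WT of 515 bp (p = 0.02, adjusted p = 0.304, exact), and of 246 bp without the *Rpl10a* promoter (p = 0.1, adjusted p = 0.386, exact). *Vgll4* (2966 bp) and *Lats1* (175 bp) had p = 0.04 and adjusted p = 0.334 in the exact test. On the per-Mb scale the differences of *Tead3* and *Lats1* turned negative. The other 6 genes had unadjusted exact p-values from 0.08 (*Tead1*, 2910 bp) to 0.98 (*Tead2*, 73.3 bp).

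After differentiation, the AHR KO libraries had more bases than every WT library at *Vgll4*, *Tead4*, *Tead1*, *Yap1* and *Tead3*, 5 of the 9 genes, while 54.4% of all genes did so. The differences were 5063 bp at *Vgll4*, 4829 bp at *Tead1*, 1433 bp at *Tead4*, 1316 bp at *Yap1* and 876 bp at *Tead3*. With 3 libraries against 2, the smallest exact p is 0.2, so that no single gene can pass within a medium. When bases were divided by the Mb covered in each library, none of the 9 genes showed this separation, the median gene going from 0.39 to −0.17 as a log2 ratio of AHR KO over WT. Without WT d4 ENR replicate 3, the count was 8, and the share of all genes 75.4%. In WENR the genotypes did not overlap at *Tead3* and *Lats1*, both higher in AHR KO, which is 2 of 9 against 22.9% of all genes in either direction, and without AHR KO WENR replicate 3 the count was 4, against 36.9% of all genes. Without the peaks at the *Rpl10a* promoter the genotypes overlapped at *Tead3* in WENR. The interaction of genotype and medium called no gene (0%, 1928 genes at an unadjusted p under 0.05, lowest adjusted p = 0.325), and among the 9 its exact p ran from 0.18 at *Vgll4* to 1 at *Lats1*. A change with medium that differs between the genotypes was therefore not detected with these libraries, which does not show that there is none.

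The 92 sites were then followed one by one. A site called in all 10 libraries was found 33 times (35.9%, against 32.9% of all regions), and 6 sites were called in all 5 WENR and no d4 ENR library (6.52%, against 5.46%). The reverse pattern, all d4 ENR and no WENR library, was found at 0 sites (0.317% of all regions), and 3 sites were called in both AHR KO and no WT library of d4 ENR (2.84% of all regions) with none the other way (0.0864%). *Tead1* held 21 sites, *Vgll4* 20, *Tead4* 16, *Wwtr1* 11, *Nf2* 10, *Yap1* 6, *Tead2* 4, *Tead3* 3 and *Lats1* 1. Called sites numbered 65 to 77 in the WENR libraries, 36, 49 and 48 in WT d4 ENR and 47 and 55 in AHR KO d4 ENR. Of the 92 sites 17 were called in 1 library (18.5%, against 14.4% of all regions), and 7 of these belonged to AHR KO WENR replicate 3, which held 20.3% of all such regions.

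**Figure D3:**
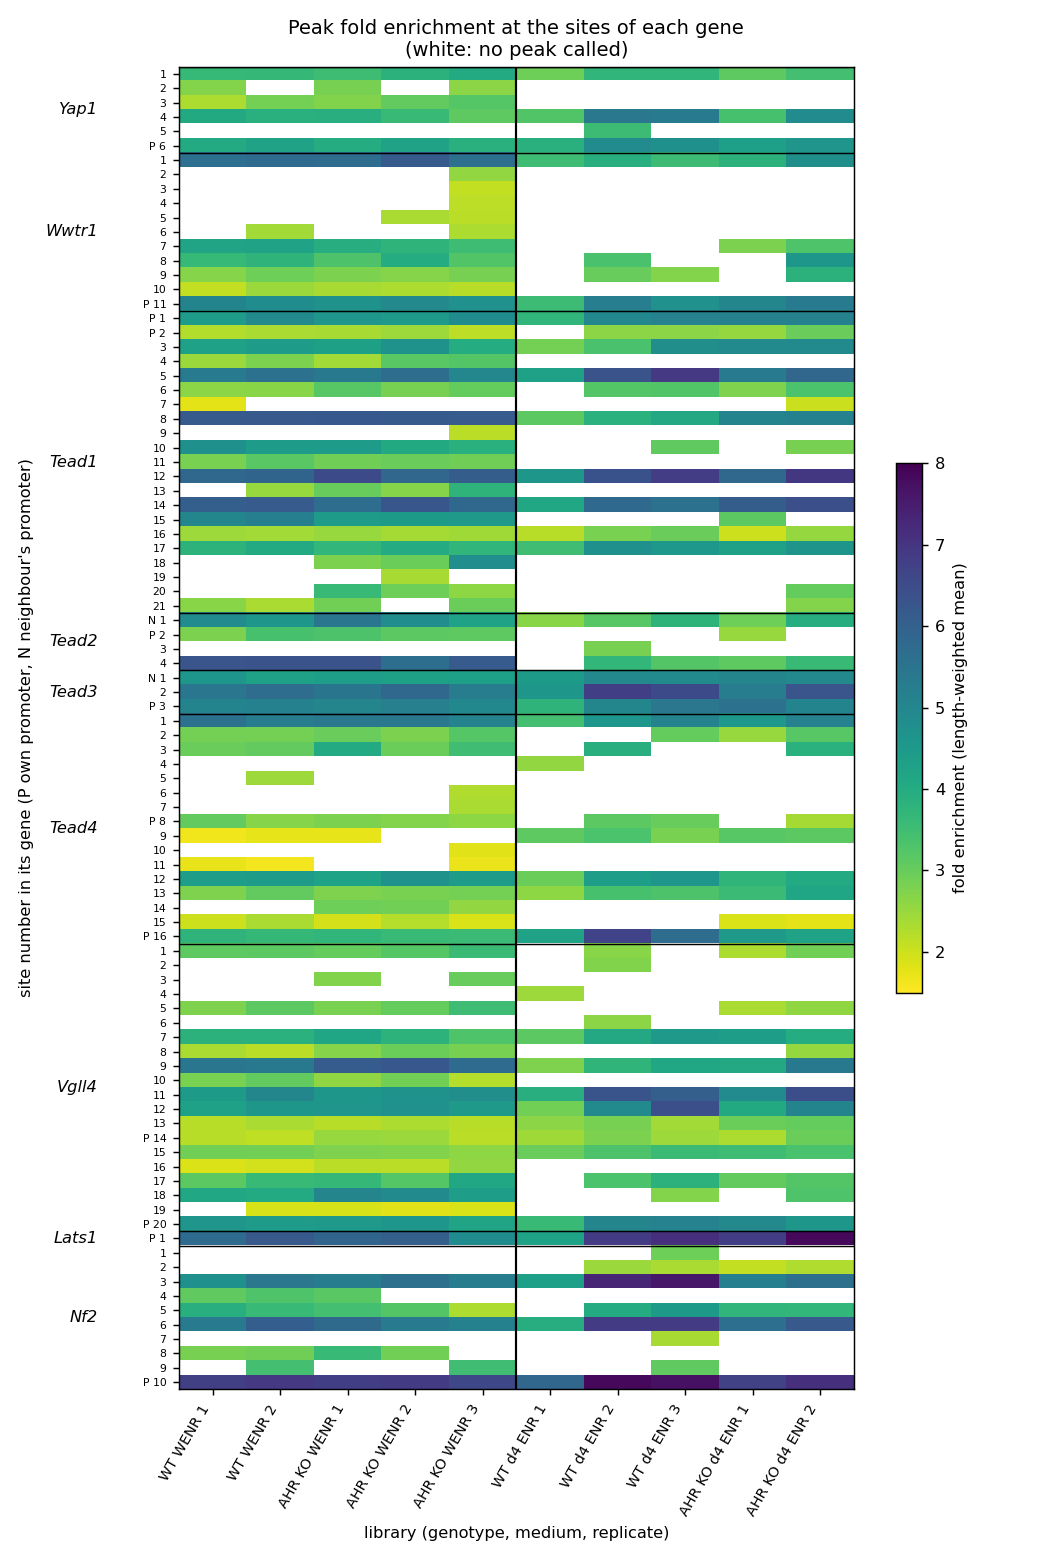
Fold enrichment (peak signal over the local background, a linear ratio from MACS) of the 92 sites in rows and the 10 libraries in columns. Values are length-weighted means of a library's peaks in the site, with blank cells where no peak was called. Rows filled across all columns are the 33 shared sites, and the d4 ENR columns hold more blanks than the WENR columns.

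Promoters and sites away from them are described separately, with no test of the difference. Of 12 sites at a start of their own gene, 9 were called in all 10 libraries (75%, against 78.2% of all promoter regions), and of 78 distal sites 22 were (28.2%, against 23.7%). All 6 WENR-only sites were distal (7.69%, against 6.14%). The promoters kept 64.7% of their WENR bases in WT and 85.3% in AHR KO, and the distal sites 42.2% and 59.3%, while over the series promoter regions kept 67.5% and 86.9% and other regions 46.3% and 70.4%. The genes did not share 1 order. At *Wwtr1* the promoter kept 84.7% in WT and 91.7% in AHR KO, and the 10 distal sites, all in introns 2 to 4, kept 18.2% and 24.2%. At *Yap1* the promoter kept 85.9% and 99.1% and the distal sites 38.8% and 63.4%. The order was the opposite at *Tead2*, whose promoter kept 0% in WT and 35.8% in AHR KO against 61.6% and 61.3% for its distal sites, and at the *Tead1* promoters in WT, with 36.3% against 49.1%.

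**Figure D4:**
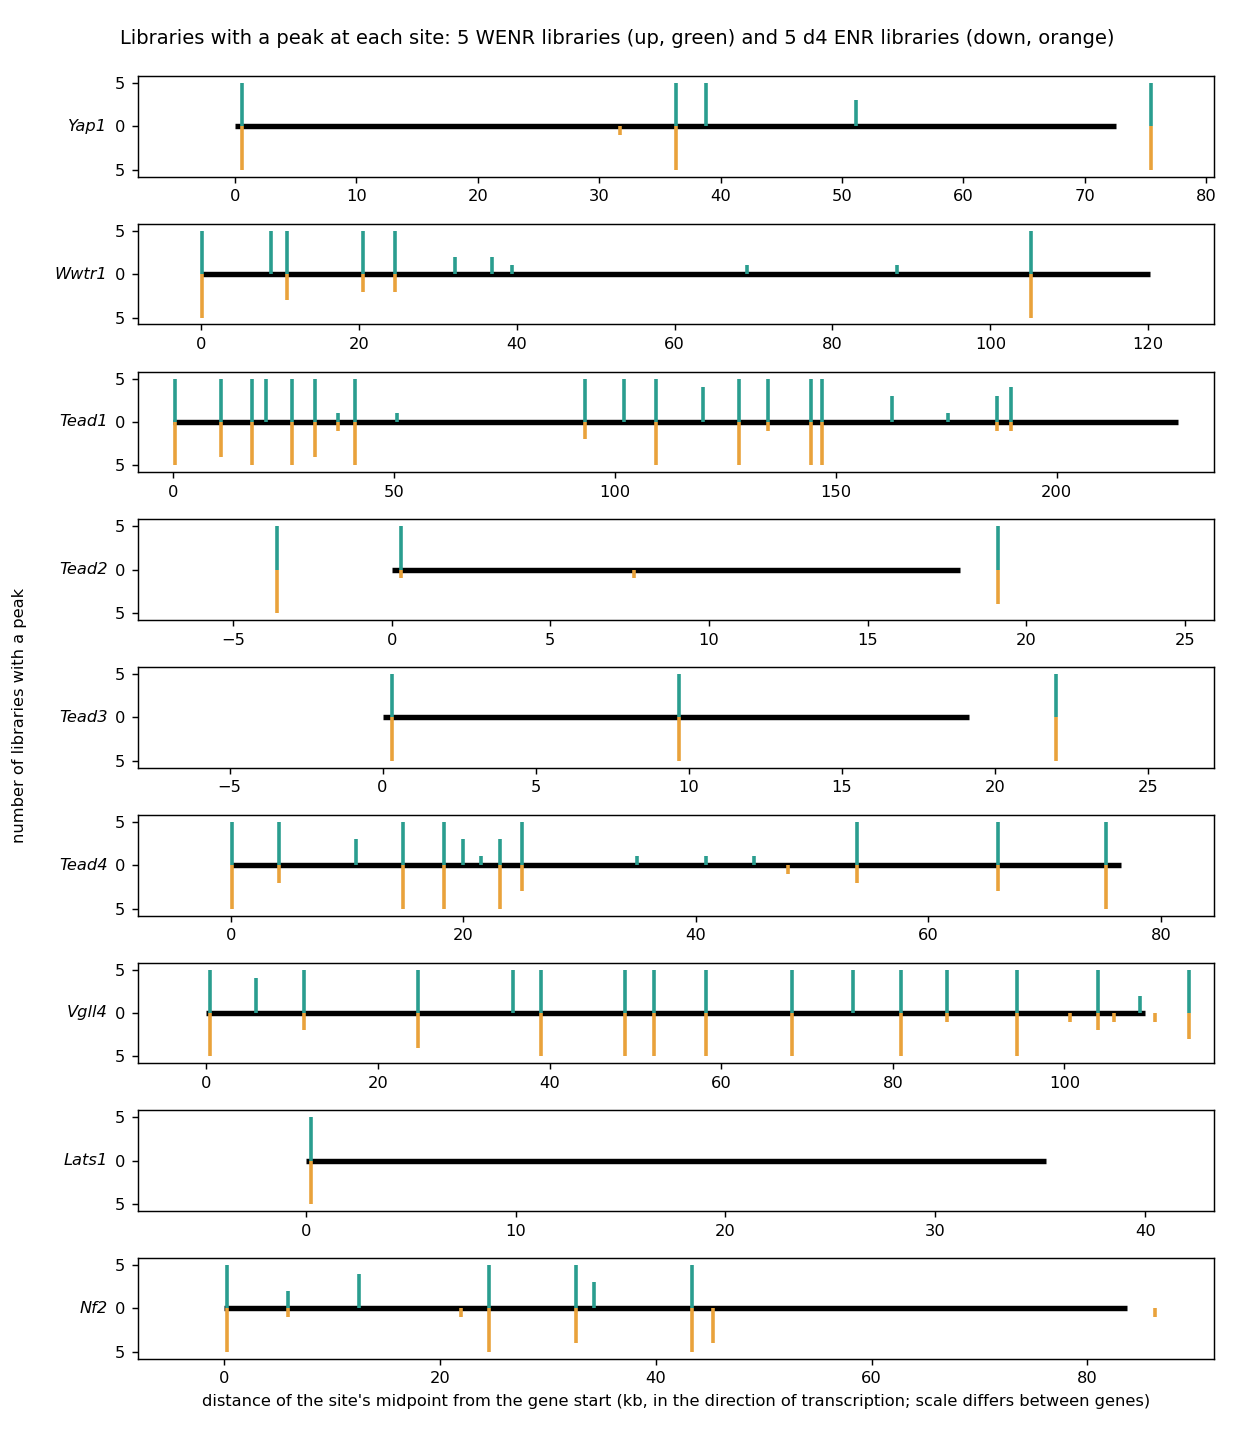
Positions of the 92 sites along the 9 genes, in kb from the start of the gene in the direction of transcription. Bars give the number of libraries with a peak at the site, upwards in green for WENR and downwards in orange for d4 ENR. Sites near 0 kb are mostly called in all 10 libraries. The sites called in every WENR and no d4 ENR library lie inside *Yap1*, *Wwtr1*, *Tead1* and *Vgll4*.

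The *Yap1* promoter (chr9:8002868-8005149) had a fold enrichment of 4.02 and 4.27 in WT WENR, 3.97, 4.26 and 3.88 in AHR KO WENR, 3.87, 4.87 and 4.72 in WT d4 ENR and 4.34 and 4.62 in AHR KO d4 ENR. The groups overlapped, and the promoter whose sequence is given above was called in every library. Its pileup, the coverage signal that MACS gives a peak, was 173 to 220 in WENR, 42.1, 40.4 and 53.1 in WT d4 ENR and 74.8 and 87.9 in AHR KO d4 ENR.

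The *Wwtr1* promoter (chr3:57574744-57576789) had a fold enrichment of 5.07 and 4.83, then 4.67, 4.93 and 4.70 in AHR KO, in WENR, and of 3.54, 5.22 and 4.72, then 5.02 and 5.29 in AHR KO, in d4 ENR. Its pileup went from 308 to 470 in WENR to 25.7, 27.3 and 33.8 in WT and 62.4 and 77.7 in AHR KO d4 ENR. Pileup is not scaled for depth or for the share of fragments outside peaks, and divided by the library's fragment number, it was called lower in d4 ENR at all 33 shared sites of the 9 genes (87.1% of the 28205 shared regions were called), whereas fold enrichment called none of them.

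The upstream promoter of *Tead4* was among the sites with higher fold enrichment in d4 ENR. At chr6:128299690-128301772 it had 3.78 and 3.68 in WT WENR, 3.73, 3.61 and 3.58 in AHR KO WENR, 4.25, 6.69 and 5.67 in WT d4 ENR and 4.48 and 4.26 in AHR KO d4 ENR. Every d4 ENR library was above every WENR library, with a log2 difference of 0.40 (exact p = 0.02, adjusted p = 0.0853 over 28205 regions). The downstream promoter (chr6:128275301-128276179, in intron 1) was called in every WENR library, but in d4 ENR only in 2 WT libraries and 1 AHR KO library. Together the *Tead4* promoters kept 73.0% of their WENR bases in WT and 72.2% in AHR KO.

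*Tead1* has a pair of annotated starts under peaks. The upstream promoter (chr7:112678486-112681100) was called in all 10 libraries, with a fold enrichment of 3.73 to 5.15. The downstream one (chr7:112688329-112691961, in intron 1 of the longest transcript), at 3633 bp the widest of the 92 sites, was missing in WT d4 ENR replicate 1 and had 566 and 1028 bp in the other WT d4 ENR libraries, 2008 and 1398 bp in AHR KO d4 ENR and 2208 to 3440 bp in WENR. Together the 2 promoters kept 36.3% of their bases in WT and 82.8% in AHR KO.

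The *Tead2* promoter (chr7:45215568-45216515) was the one most often lost. Its fold enrichment was 2.79 and 3.40 in WT WENR, 3.30, 3.15 and 3.11 in AHR KO WENR and 2.50 in AHR KO d4 ENR replicate 1, with no peak in the other 4 d4 ENR libraries. It was also the lowest of the main promoters in WENR. A site downstream of the gene (chr7:45234188-45235493) stayed in 4 of the 5 d4 ENR libraries, with a fold enrichment of 6.28 and 6.33 in WT WENR, 6.33, 5.64 and 6.13 in AHR KO WENR, 3.70 and 3.24 in WT d4 ENR replicates 2 and 3 and 3.12 and 3.59 in AHR KO d4 ENR.

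*Tead3* kept both its promoter and that of its neighbour *Rpl10a*. Its own promoter (chr17:28349558-28351486) had a fold enrichment of 5.06 and 5.15 in WT WENR, 5.04, 5.17 and 4.96 in AHR KO WENR, 3.77, 5.01 and 5.43 in WT d4 ENR and 5.54 and 5.06 in AHR KO d4 ENR. WT d4 ENR replicate 1 was the lowest, and the other libraries overlapped. The *Rpl10a* promoter, within 5 kb of the end of *Tead3*, was the widest site of the window (chr17:28327675-28329947). It had a log2 difference between media of 0.16 (exact p = 0.04, adjusted p = 0.132).

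The promoters of the restraining arm were called throughout. At *Lats1* (chr10:7680562-7682364) fold enrichment was 5.74 and 6.19 in WT WENR, 5.89, 6.04 and 4.83 in AHR KO WENR, 4.23, 6.85 and 7.14 in WT d4 ENR and 6.80 and 7.86 in AHR KO d4 ENR. At *Nf2* (chr11:4848746-4849856) it was 6.77 and 6.92, 6.80, 6.87 and 6.59, 5.87, 7.87 and 7.71, and 6.74 and 7.13, in the same order. In both promoters WT d4 ENR replicate 1 was the lowest library and the groups overlapped. *Nf2* also had a broad site in intron 1 (chr11:4823436-4826498, 3063 bp) that was called in all 10 libraries. *Vgll4* had a start at chr6:114968455-114970695 and another at chr6:114919436-114922864, both called in all 10 libraries.

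Over the 33 shared sites, fold enrichment was lower in d4 ENR at 11 and higher at 22, with a median log2 difference of 0.06. Over all 28205 shared regions 57% were lower, with a median of −0.04. None of them, and none of the 28205, passed the adjusted exact permutation test of medium (0% called in either direction, lowest adjusted p = 0.0853), while 9 of the 33 and 8561 of the 28205 had an unadjusted p under 0.05. Genotype over both media called 0% as well (966 regions and 1 of the 33 sites at an unadjusted p under 0.05).

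Among the 33 shared sites, the distal ones whose fold enrichment was most reduced in d4 ENR lay at *Wwtr1*, *Tead1* and *Vgll4*. Each had exact p = 0.02 and adjusted p = 0.0853 in the permutation test, and they are given after their values were seen. The *Wwtr1* site in intron 4 (chr3:57470116-57471465) had 5.63 and 5.74 in WT WENR, 5.68, 6.17 and 5.61 in AHR KO WENR, 3.53, 3.93 and 3.53 in WT d4 ENR and 3.81 and 4.77 in AHR KO d4 ENR, a log2 difference of −0.54. The *Tead1* site in intron 1 (chr7:112719996-112721068) had 6.15 and 6.20, then 6.21, 6.17 and 6.12 in AHR KO, in WENR, and 3.15, 3.86 and 4.07, then 5.06 and 5.15 in AHR KO, in d4 ENR, a log2 difference of −0.51. The libraries fell into 3 levels at this site, with AHR KO d4 ENR between WENR and WT d4 ENR. The *Vgll4* site in intron 2 (chr6:114888658-114889449) had 5.45 and 5.36 in WT WENR, 6.12, 6.23 and 5.72 in AHR KO WENR, 2.75, 3.74 and 4.12 in WT d4 ENR and 4.07 and 5.37 in AHR KO d4 ENR, a log2 difference of −0.50. It was the only one of the 33 with an unadjusted p under 0.05 for genotype (log2 difference of 0.29, exact p = 0.04, adjusted p = 1). Beside the *Tead2* gene, the promoter of its neighbour *Dkkl1* (chr7:45211670-45212606) had a log2 difference of −0.53 with the same p-values.

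A pair of *Vgll4* sites had higher values in d4 ENR, which did not pass the adjusted test either. The site at chr6:114916450-114919223 had 2.21 and 2.34 in WT WENR, 2.21, 2.29 and 2.19 in AHR KO WENR, 2.62, 2.83 and 2.41 in WT d4 ENR and 2.97 and 3.04 in AHR KO d4 ENR, a log2 difference of 0.32. The site at chr6:114929491-114932487 had 2.88 and 2.89, then 2.75, 2.74 and 2.61 in AHR KO, in WENR, and 3.00, 3.32 and 3.58, then 3.51 and 3.37 in AHR KO, in d4 ENR, a log2 difference of 0.27. At both, every d4 ENR library was above every WENR library (exact p = 0.02, adjusted p = 0.0853), and both were singled out after their values were seen. The difference between sites of the gene was not tested.

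Of the sites without a peak in any d4 ENR library, those called in every WENR library are named WENR-only and shown here. Their fold enrichment in WENR was low, between 1.83 and 3.25. The *Yap1* site in intron 3 (chr9:7965520-7966064) had a fold enrichment of 2.31 and 2.86 in WT and 2.73, 3.06 and 3.22 in AHR KO. The *Wwtr1* site in intron 2 (chr3:57566615-57567547) had 2.09 and 2.47 in WT and 2.35, 2.30 and 2.19 in AHR KO. *Tead1* held a site in intron 1 (chr7:112700089-112700512, 2.41 to 3.25) and one in intron 2 (chr7:112780960-112781857, 2.82 to 3.17). *Vgll4* held a site in intron 1 (chr6:114894322-114895012, 2.22 to 3.06) and one further upstream (chr6:114934068-114934542, 1.83 to 2.55). Over their whole length, 4 of these 6 sites held the letters of an AP-1 or TEAD motif, as did 65.4% of all WENR-only regions and 48.8% of all regions, and in the central 300 bases 1 did (*Yap1*), against 36.8% and 23.2%. The stretches below run 30 bases beyond the outermost match on each side, on the plus strand of GRCm38, with the AP-1 letters TGAGTCA or TGACTCA and the TEAD letters in capitals.
Yap1 intron 3, AP-1, chr9:7965773-7965839: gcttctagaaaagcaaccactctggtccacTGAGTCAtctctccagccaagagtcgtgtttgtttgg
Wwtr1 intron 2, AP-1, chr3:57566814-57566880: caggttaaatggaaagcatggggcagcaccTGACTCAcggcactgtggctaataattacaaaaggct
Vgll4 intron 1, AP-1, chr6:114894900-114894966: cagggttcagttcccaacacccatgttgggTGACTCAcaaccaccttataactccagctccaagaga
Tead1 intron 2, TEAD on both strands, chr7:112781031-112781211: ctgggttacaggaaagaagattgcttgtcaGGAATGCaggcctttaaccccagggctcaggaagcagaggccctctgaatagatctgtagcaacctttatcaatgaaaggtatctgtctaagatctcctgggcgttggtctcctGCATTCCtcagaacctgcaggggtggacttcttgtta
In the central 300 bases of regions, AP-1 letters were found in 27.1% of all WENR-only regions, 11.5% of those called in all 10 libraries and 14.9% of all regions, and in 14 of the 92 member sites (15.2%). TEAD letters were found in 13.5, 8.11 and 9.87% and in 8 member sites (8.7%).

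The 3 sites called in both AHR KO and no WT library of d4 ENR were all called in the 5 WENR libraries too. The *Wwtr1* site in intron 2 (chr3:57550386-57552245) had a fold enrichment of 4.20 and 4.26 in WT WENR, 3.94, 3.78 and 3.52 in AHR KO WENR and 2.77 and 3.29 in AHR KO d4 ENR. The *Vgll4* site in intron 2 (chr6:114865322-114866907) had 2.75 and 3.15, then 2.80, 3.04 and 3.52, and 2.33 and 2.58, in the same groups. The *Tead4* site in intron 1 (chr6:128296176-128297116) had 2.00 and 2.32, then 1.91, 2.22 and 1.86, and 1.86 and 1.76. Their d4 ENR peaks in AHR KO were thus no higher than their WENR peaks, and when every list was shortened to its 33433 strongest peaks none of the 3 kept the pattern. Without AHR KO d4 ENR replicate 1 the count was 7 (8.59% of all regions) and without replicate 2 it was 5 (5.21%). Over their whole length the 3 sites held TEAD or AP-1 letters, as did 51.4% of all regions with this pattern, and in the central 300 bases 2 did (*Vgll4* and *Tead4*), against 24.5%. They are shown with 30 bases on each side of the outermost match, on the plus strand of GRCm38.
Wwtr1 intron 2, AP-1, chr3:57552098-57552164: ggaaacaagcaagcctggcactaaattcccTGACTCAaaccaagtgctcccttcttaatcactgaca
Vgll4 intron 2, TEAD, chr6:114866121-114866187: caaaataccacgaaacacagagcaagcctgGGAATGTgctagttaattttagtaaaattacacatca
Tead4 intron 1, TEAD and AP-1, chr6:128296300-128296585: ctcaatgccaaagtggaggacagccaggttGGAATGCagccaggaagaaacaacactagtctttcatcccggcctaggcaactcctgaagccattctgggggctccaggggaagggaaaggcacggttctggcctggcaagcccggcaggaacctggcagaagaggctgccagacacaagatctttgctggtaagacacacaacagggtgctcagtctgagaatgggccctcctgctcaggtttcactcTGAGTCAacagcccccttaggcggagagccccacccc
The AHR letters TNGCGTG were found in the central 300 bases of 6 member sites (6.52%, against 3.71% of all regions), TCF/LEF letters in 11 of 92 (against 4.75%) and HNF4 letters in 2 (2.17%, against 2.14%). At sites and regions narrower than 300 bases this window runs past their ends. The TCF/LEF match counted for the *Nf2* site at chr11:4827461-4827705 lay outside that site. The sites with AHR letters were promoters of *Yap1*, *Tead2*, *Tead4* and *Vgll4*, that of the neighbour *Rpl10a* and a distal *Vgll4* site.

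A pair of sites leaned towards d4 ENR. The *Nf2* site in intron 6 (chr11:4804044-4804470) was called in no WENR library, and had a fold enrichment of 2.49 and 2.32 in WT d4 ENR replicates 2 and 3 and 2.11 and 2.27 in AHR KO d4 ENR. The *Tead4* site in intron 1 (chr6:128277304-128277977) had 1.63 and 1.74 in WT WENR and 1.75 in 1 AHR KO WENR library, against 3.10, 3.33 and 2.81 in WT and 3.19 and 3.13 in AHR KO d4 ENR. Both were chosen after their values were seen.

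The other genes of the pathway were measured over the same window. Of 33 listed, 32 had a peak (*Vgll1* had none) and 21 were called lower in d4 ENR (65.6%, against 51.3% of all genes), 0 higher, and 0 were called for genotype. All 6 polarity and cadherin genes were called lower, as were 4 of 5 genes of the kinase core, 5 of 8 upstream and scaffold genes, 2 of 4 inhibitors of the AMOT and PTPN14 kind, 2 of 3 LIM protein genes, 2 of 4 genes of the phosphatase complex that restrains the MST kinases and 0 of 2 other vestigial-like cofactors. The median log2 ratio of the 31 genes covered in all 10 libraries was −0.73, the same as that of the 9. *Dchs1*, a giant cadherin upstream of Hippo, had the lowest ratio, −1.98, with 3210 ± 66.5 bp in WT WENR (SD, n = 2), 2185 ± 350 bp in AHR KO WENR (n = 3), 518 ± 28.5 bp in WT d4 ENR (n = 3) and a mean of 876 bp in AHR KO d4 ENR (n = 2). *Fat1*, another such cadherin (−1.58), and *Amotl1*, which holds YAP in the cytoplasm (−1.52), followed. *Taok2* (−0.12), the LATS cofactor *Mob1a* (−0.18) and *Amotl2* (−0.21) had the highest ratios and were not called (adjusted p = 0.267, 0.113 and 0.0904 in the exact permutation test).

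For each of the 9 genes, the gene with the most similar profile over the 10 libraries was sought by Pearson's r of bases per Mb, as a description over libraries that share their depth and list length. These were *Krtcap3* for *Tead3* (r = 0.996), *Gtf2h2* for *Lats1* (0.982), *Bmpr1a* for *Tead1* (0.971), *Agtrap* for *Tead2* (0.961), *Lgmn* for *Wwtr1* (0.957), *Dnajc3* for *Tead4* (0.913), *Mapk11* for *Vgll4* (0.889), *Nudt21* for *Yap1* (0.884) and *Gsto2* for *Nf2* (0.833). No gene of the 9 was the nearest to another of the 9.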

How the data were processed

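Omni-ATAC-seq libraries were sequenced as paired ends, and the authors processed them with nf-core/atacseq (trimming with Trim Galore, alignment with BWA to GRCm38). Per the file headers, MACS 2.2.7.1 called broad peaks in each library alone, with a broad q of 0.1, a narrow q of 0.05, a local background over 10000 bp and no control. The deposited lists give each peak its length, pileup signal (coverage), fold enrichment as a ratio over the local background, and −log10 of its p-value and q-value, none of which is a read count, so that the count test of the study's methods could not be repeated on them.

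The 9 genes and the list of other pathway genes were chosen with earlier results of these data known. Bases under peaks were summed per gene (body with 5 kb on each side), and peaks overlapping by at least 1 bp in any library were merged to regions. A region from 1 kb before to 100 bp after an annotated start was called a promoter. Medium, genotype and interaction were tested by exact permutation of libraries within the other factor (100 arrangements, smallest two-sided p = 0.02), with Benjamini-Hochberg adjustment over all genes or over all regions called in all 10 libraries, at 0.05. Fold enrichment and pileup of a site were length-weighted means of a library's peaks in it, and fold enrichment was compared on the log2 scale. Named were all 9 genes, their promoters, widest sites and sites called in 1 set of groups only, neighbours whose promoter lies in the window, the most alike gene, and the 3 highest and 3 lowest ratios of the pathway list. The scripts were tested on simulated data. Python 3.11.15, numpy 2.4.6, pandas 2.3.3, scipy 1.17.1 and matplotlib 3.10.9 were used. Sequences came from GRCm38 and RefSeq (GRCm38.p6), with 7 of 9 genes matched. Intervals for depth cannot be given, since the peaks carry no counts of a total.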

Additional observations from a re-analysis of the deposited data

How the results depend on the processing

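The medium was called for 9 genes on bases under peaks, for 7 on the gene body alone, for 3 per Mb of the library, and for 0 with lists shortened to the shortest and in any fit without 1 library (0 to 0), where fewer arrangements raise the smallest exact p. No gene was called for genotype under any of these. The separation of the media in every gene, a count added after seeing the data, was 9 without any 1 library and 2 per Mb. Leaving out 1 library cannot lower this count or those that follow, which ask for no overlap between groups. Both AHR KO libraries were above WT in d4 ENR for 0 genes per Mb, 8 on pileup times length over the library's fragment number (81.5% of all genes), and 5 to 8 with 1 library left out. Non-overlap in WENR held for 0 genes on the gene body alone, 0 with 20 kb on each side, 1 per Mb, 1 without the peaks at the *Dkkl1* and *Rpl10a* promoters (a choice made after seeing the data), and 2 to 4 with 1 library left out. The cause was not tested.

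Sites called in all 10 libraries numbered 19 at a −log10 q of at least 5, 16 where peaks had to cover 50% of the site, and 33 to 38 with 1 library left out. WENR-only sites numbered 2 in shortened lists, 11 at the stricter q and 6 to 8 with 1 library left out. Sites called in AHR KO but not WT d4 ENR numbered 0 in shortened lists, 5 with 20 kb on each side and 3 to 7 with 1 library left out, and the reverse was found once in shortened lists (1 site). These patterns set a condition on every library they name, so that leaving out 1 library relaxes them and mostly adds sites. All 33 sites were called for the medium on pileup over the fragment number.

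The difference between media turned positive per Mb for *Yap1* (3.72), *Tead3* (31.1) and *Lats1* (7.20 bp per Mb). That between genotypes turned negative per Mb for *Tead2* (−3.84), *Tead3* (−10.7), *Tead4* (−6.89), *Lats1* (−3.22) and *Nf2* (−9.01), in shortened lists for *Yap1* (−334 bp) and *Tead2* (−366 bp), and further for *Tead2* with 20 kb on each side (−158 bp), on pileup (−331), and without WT WENR replicate 2 (−23.9 bp), AHR KO WENR replicate 3 (−20.2 bp) or WT d4 ENR replicate 1 (−170 bp), the values with 1 library left out ending at 241.5 bp.

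Same-numbered libraries deviated together with r from −0.0493 to 0.175 over genes, above 0.1 in 1 of 8 pairs, so the numbers were not taken to pair them. With the replicate block, which keeps replicates 1 and 2 only, 0 genes were called for the medium (differences of −326 bp at *Lats1* to −9229 bp at *Vgll4*, smallest exact p = 0.125), both AHR KO libraries were above WT in d4 ENR for 8 genes (81.2% of all genes), and the genotypes did not overlap in WENR for 4 (52.3% of all genes). The part of the lower share of coverage in peaks in d4 ENR was not tested.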
